A study of Mus musculus with 6 samples.

Results

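The genes described here are the core regulators of the epithelial-mesenchymal transition (EMT) and 2 of its structural markers: the transcription factors Snai1, Snai2, Twist1, Twist2, Zeb1, Zeb2 and Prrx1, the intermediate filament protein vimentin (Vim) and the mesenchymal cadherin Cdh2. They were chosen by gene symbol, 9 of the 53379 genes counted. 7 of the 9 were among the 15973 protein-coding genes in the authors' own comparison, and 5 of these passed the filter on low counts that left 12572 genes for testing. The remaining members, Snai2 and Cdh2, were looked up in the count matrix and had 0 counts in every library. The cells were 4T1-T, a sub-clone of the mouse mammary carcinoma line 4T1 that forms vessel-like channels (vasculogenic mimicry, VM), so all 6 libraries come from 1 clone. They were serum-starved overnight in medium with 0.3% BSA, incubated for 4 h with 10 ug/mL of acetylated low-density lipoprotein (acLDL) carrying Alexa-488, returned to complete growth medium for 1 h and sorted by fluorescence. The brightest 25% were taken as acLDL-high and the dimmest 25% as acLDL-low, on 3 separate occasions, and polyA RNA of both populations was sequenced. The replicate number of a sample was taken to mark its occasion, which the labels do not state. No allele, transgene or drug distinguished the groups, which were sorted from the same cultures, and the comparison asks how gene expression differs between cells that take up much or little acLDL.

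In an EMT, epithelial cells give up their junctions and polarity and take on a motile, mesenchymal form. The Snail, Twist and Zeb families and Prrx1 drive this programme. Snail and Zeb proteins bind E-box sequences in the promoters of epithelial genes such as Cdh1 (E-cadherin) and repress them, Twist proteins are basic helix-loop-helix factors that pair with E proteins, and Prrx1 is a homeobox factor. Vimentin replaces or joins keratins in the cytoskeleton, and the exchange of Cdh1 for Cdh2 (N-cadherin) is a classical sign of the transition. Tumor cells can also hold intermediate states with epithelial and mesenchymal features together.

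1 paralogue of each pair carried nearly all of the expression, and no member differed between acLDL-high and acLDL-low cells at an adjusted p under 0.05. Of all genes tested, 4.75% passed that threshold (edgeR quasi-likelihood test with the occasion as a block, Benjamini-Hochberg adjustment), 3.43% as higher and 1.32% as lower in acLDL-high cells, while 0 of the 5 members tested did. 2 of the 5, Snai1 and Zeb1, had an unadjusted p under 0.05, and DESeq2 gave the same counts, 0 adjusted and 2 unadjusted. Library totals lay between 70263372 and 94216786 counts, and 3 counts, the limit that a count of 0 allows, stood for 0.0323 to 0.0429 CPM in a library, which covers counting error only. CPM is the usual scale of counts relative to the library size, here scaled by TMM. In such bulk populations, fewer cells that express a gene and less RNA per cell cannot be told apart.

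Set per exon length, the members spanned from one of the most abundant transcripts of the cells to genes without a read. Vim averaged 726 CPM per kb over the 6 libraries (679 to 817) and ranked 25 of 15973 genes. Twist1 averaged 16.2 (13.6 to 19.0) and Snai1 14.5 (9.51 to 19.1) on the same scale. Zeb2 followed at 3.53 (2.86 to 4.06) and Zeb1 at 0.128 (0.0473 to 0.197), while Prrx1 and Twist2 averaged 0.00398 and 0.00113. The ranges of Twist1 and Snai1 overlapped and their order changed between libraries, with a ratio of Twist1 to Snai1 from 0.794 to 1.52. The ranges of Vim, of Twist1 and Snai1, of Zeb2 and of Zeb1 did not overlap in this order. The exon length is the union of all annotated exons, which is long for Zeb2 (19942 bases) and Zeb1 (10266 bases) beside Snai1 (1621 bases) and Twist1 (1628 bases), so the level of a Zeb gene per kb is understated where its transcripts use only some of these exons.

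**Figure D1:**
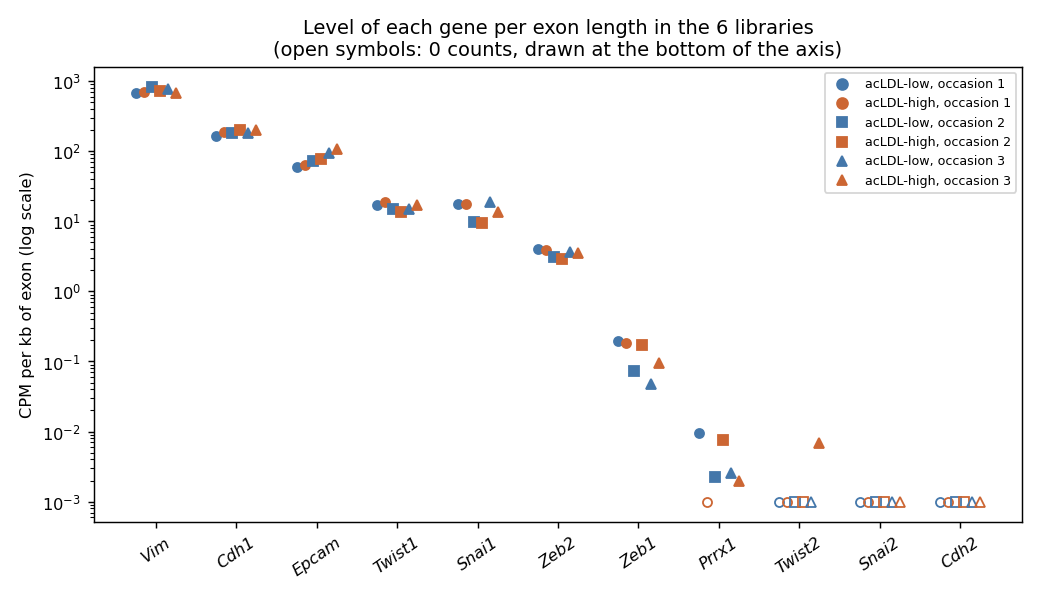
CPM per kb of exon on a log axis for the 9 members and for the epithelial genes Cdh1 and Epcam, with 1 symbol per library, colour for the sorted population and shape for the occasion. Vim lies above Cdh1 in every library, Snai1, Twist1 and Zeb2 lie well above their paralogues Snai2, Twist2 and Zeb1, and open symbols mark libraries with 0 counts.

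The Snail family was represented by Snai1, a zinc finger repressor of Cdh1 that is often the first factor induced in an EMT. Snai1 (ENSMUSG00000042821, GRCm38 chr2:167538195-167542814, + strand) measured 28.8, 15.9 and 30.9 CPM in the acLDL-low samples of occasions 1, 2 and 3 and 28.3, 15.4 and 21.9 CPM in their acLDL-high partners. The groups overlapped, both libraries of occasion 2 were the lowest, and acLDL-high cells were lower on each occasion, by very little on the first and second. The means were 25.2 ± 8.09 and 21.9 ± 6.43 CPM (SD, n = 3 each). The log2 fold change was -0.20 (SE 0.08, 95% interval -0.37 to -0.02, edgeR unadjusted p 0.0322, adjusted p 0.206). The 3 within-occasion differences were -0.03, -0.05 and -0.50 on the log2 scale. Without occasion 3 the log2 fold change was -0.04 (adjusted p 0.891), whereas without occasion 1 or 2 it was -0.29 or -0.26 with an adjusted p of 0.0432 or 0.00608, so the size of the difference rests on occasion 3. Snai2 (ENSMUSG00000022676, chr16:14705852-14709385, + strand), which encodes Slug, the factor of neural crest and of basal mammary cells, had 0 counts in all 6 libraries.

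The Twist family was likewise represented by 1 gene. Twist1 (ENSMUSG00000035799, chr12:33957671-33959829, + strand) measured 28.3, 24.4 and 24.6 CPM in the acLDL-low samples of occasions 1 to 3, and 31.0, 22.1 and 27.8 CPM in the acLDL-high samples. It was higher in acLDL-high cells on occasions 1 and 3 and lower on occasion 2, and the groups overlapped. With means of 25.8 ± 2.19 and 26.9 ± 4.49 CPM (SD, n = 3 each), the log2 fold change was 0.06 (SE 0.06, 95% interval -0.08 to 0.19, edgeR adjusted p 0.690). Twist2 (ENSMUSG00000007805, chr1:91801461-91848028, + strand), the Twist paralogue of dermal and mesodermal cells, had 2 counts in the acLDL-high library of occasion 3 and 0 in the other 5. Its exons share 1477 bases with a gene of the opposite strand, Gm29100. The annotated transcripts of Snai1 and Snai2, and those of Twist1 and Twist2, share no stretch of 50 bases, the read length, and their longest shared run is 23 bases in each pair, so a read of either would not fit the other without mismatches.

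The 250 bases before the RefSeq start (GRCm38.p6) are shown for Snai1 and for both Twist genes, to set the start of an expressed gene beside that of its near-silent paralogue and to mark the letters that Snail and Zeb proteins bind. Capitals mark the E-box CAGGTG or its reverse complement CACCTG, searched on both strands. Each sequence is on the + strand, 5′ to 3′, at chr2:167537945-167538194, chr12:33957421-33957670 and chr1:91801211-91801460.
Snai1: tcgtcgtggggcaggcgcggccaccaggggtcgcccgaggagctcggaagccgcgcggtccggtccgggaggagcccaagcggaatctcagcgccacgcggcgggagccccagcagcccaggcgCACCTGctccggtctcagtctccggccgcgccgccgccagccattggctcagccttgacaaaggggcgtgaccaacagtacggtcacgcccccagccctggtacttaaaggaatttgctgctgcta
Twist1: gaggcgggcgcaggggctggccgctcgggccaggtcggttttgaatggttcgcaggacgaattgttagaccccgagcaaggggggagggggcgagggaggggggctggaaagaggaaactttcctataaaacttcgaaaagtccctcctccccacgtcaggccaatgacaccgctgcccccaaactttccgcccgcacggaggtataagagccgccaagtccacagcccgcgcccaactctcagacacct
Twist2: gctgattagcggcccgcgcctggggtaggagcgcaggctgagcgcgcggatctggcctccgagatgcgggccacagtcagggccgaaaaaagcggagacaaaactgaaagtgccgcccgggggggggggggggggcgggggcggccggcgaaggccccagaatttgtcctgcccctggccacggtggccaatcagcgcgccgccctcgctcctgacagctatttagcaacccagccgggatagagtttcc
The Snai1 window held 1 such E-box and the Twist windows none, and 17.1% of the 27025 gene starts of the same length held at least 1. The windows of Snai1, Twist1 and Twist2 held 27, 18 and 23 CpG dinucleotides, against a median of 6 over all starts, so expressed Twist1 and near-silent Twist2 both begin in CpG-rich sequence. These matches describe letters and not occupied sites.

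The levels of the members can be read against their partners. Twist proteins act as dimers with E proteins, and the Id proteins, which lack a DNA-binding region, sequester E proteins and so restrain Twist. In the list of 20 co-factors and turnover genes of the EMT factors, 19 were tested and 3 rose in acLDL-high cells, namely Id1, Id2 and Id3, while none fell. Their count stands beside the 4.75% of all genes called, and the median log2 fold change of the list was 0.02 against 0.0017 for all genes tested. Id3 measured 64.9, 83.9 and 66.6 CPM in the acLDL-low samples and 92.3, 115.8 and 96.6 CPM in the acLDL-high samples. The groups of Id1 and of Id2 overlapped. The log2 fold changes of Id1, Id2 and Id3 were 0.53 (SE 0.06), 0.60 (SE 0.06) and 0.50 (SE 0.04), with edgeR adjusted p of 0.000359, 0.000222 and 3.72e-05, and each was higher on 3 of 3 occasions and called when any 1 occasion was left out. Without the occasion as a block no list gene was called (adjusted p 1). Twist1, on the same libraries, had an interval of -0.08 to 0.19. The E proteins Tcf3, Tcf4 and Tcf12 and the remaining Id gene, Id4, chosen for naming after their values were seen, were not called. Their log2 fold changes were -0.11, 0.05, 0.05 and 0.11 (edgeR adjusted p 0.215, 0.566, 0.541 and 0.702).

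In the Zeb family, whose 2 members are large repressors with zinc fingers at both ends, Zeb2 predominated. Zeb2 (ENSMUSG00000026872, chr2:44983632-45117395, - strand) measured 80.9, 61.7 and 73.6 CPM in the acLDL-low samples of occasions 1 to 3, and 79.0, 57.0 and 70.5 CPM in the acLDL-high samples. It was slightly lower in acLDL-high cells on each occasion, with overlapping groups. The means were 72.1 ± 9.68 and 68.8 ± 11.1 CPM (SD, n = 3 each), and the log2 fold change was -0.07 (SE 0.04, 95% interval -0.16 to 0.02, edgeR adjusted p 0.408). Its exons share 657 bases with opposite-strand genes that include the antisense RNA Zeb2os, and the strand setting of the counting is not given in the sources used here. Zeb2os itself had 16 to 107 counts per library against 4096 to 6551 for Zeb2.

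Zeb1 (ENSMUSG00000024238, chr18:5591860-5775467, + strand) was scarce, with 153, 60 and 34 counts in the acLDL-low samples of occasions 1 to 3, against 150, 126 and 92 in the acLDL-high samples. In CPM these were 2.02, 0.743 and 0.486 against 1.89, 1.75 and 0.990. The populations were close on occasion 1 and acLDL-high cells were higher on occasions 2 and 3, with overlapping groups. The means were 1.08 ± 0.823 and 1.54 ± 0.483 CPM (SD, n = 3 each). The log2 fold change was 0.62 (SE 0.25, 95% interval 0.08 to 1.15, edgeR unadjusted p 0.0275, adjusted p 0.191), the widest interval among the members tested, and the within-occasion differences were -0.10, 1.21 and 0.99. Without occasion 1 it was 1.15 with an adjusted p of 0.00922, and without occasion 2 or 3 it was not called. Per exon length, Zeb2 exceeded Zeb1 by 16.7 to 78.1 times in the 6 libraries. Zeb1 overlaps Gm10125 on the opposite strand over 198 bases. The annotated transcripts of Zeb1 and Zeb2 share no stretch of 50 bases and a longest run of 35.

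Prrx1 (ENSMUSG00000026586, chr1:163245119-163313710, - strand), a factor of limb and craniofacial mesenchyme, was at or near the limit of detection, with 8, 2 and 2 counts in the acLDL-low samples of occasions 1 to 3, against 0, 6 and 2 in the acLDL-high samples. No fold is given at these counts. Between 70.9% and 72.3% of all values from 1 to 20 in a library were even numbers, and whether the 2 mates of a read pair were counted separately is not given in the sources used here, so 2 counts may stand for 1 fragment, and the limit that a count of 0 allows would then be higher than the one given above in counts.

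Of the structural markers, Vim was abundant and Cdh2 was not detected. Vim (ENSMUSG00000026728, chr2:13573927-13582826, + strand) measured 3227, 3875 and 3610 CPM in the acLDL-low samples of occasions 1 to 3, and 3338, 3389 and 3219 CPM in the acLDL-high samples. It was higher in acLDL-high cells on occasion 1 and lower on occasions 2 and 3, and the groups overlapped. The means were 3571 ± 325 and 3315 ± 87.3 CPM (SD, n = 3 each), and the log2 fold change was -0.10 (SE 0.06, 95% interval -0.22 to 0.02, edgeR adjusted p 0.334). Cdh2 (ENSMUSG00000024304, chr18:16588877-16809246, - strand) had 0 counts in all 6 libraries.

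Of the 8 cadherins listed beside Cdh2 the most abundant was Cdh1, while Cdh3, chosen for naming after its values were seen, averaged 1.00 and 1.05 CPM in acLDL-low and acLDL-high cells. Cdh1, the adhesion molecule that Snail and Zeb factors repress, was at 811 ± 45.8 CPM in acLDL-low and 888 ± 34.7 CPM in acLDL-high cells (SD, n = 3 each), higher on 3 of 3 occasions. Its log2 fold change of 0.13 (SE 0.04) had an adjusted p of 0.108 by edgeR and of 0.0473 by DESeq2. Per exon length the ratio of Vim to Cdh1 was 4.10, 4.43 and 4.19 in the acLDL-low samples, against 3.79, 3.60 and 3.42 in the acLDL-high samples, lower in acLDL-high cells on each occasion. The ratio was not tested or set against those of other gene pairs, and edgeR called neither Vim nor Cdh1. In the list of 8 cadherins 6 were tested and 0 were called, with a median log2 fold change of 0.11, and by DESeq2 1 was, Cdh1. The epithelial surface protein Epcam was at 165 ± 40.0 and 182 ± 47.5 CPM (log2 fold change 0.14, edgeR adjusted p 0.0763). Thus Snai1, Twist1, Zeb2 and Vim were detected in the same populations as Cdh1 and Epcam, in bulk RNA that does not tell whether the same cells held them.

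**Figure D2:**
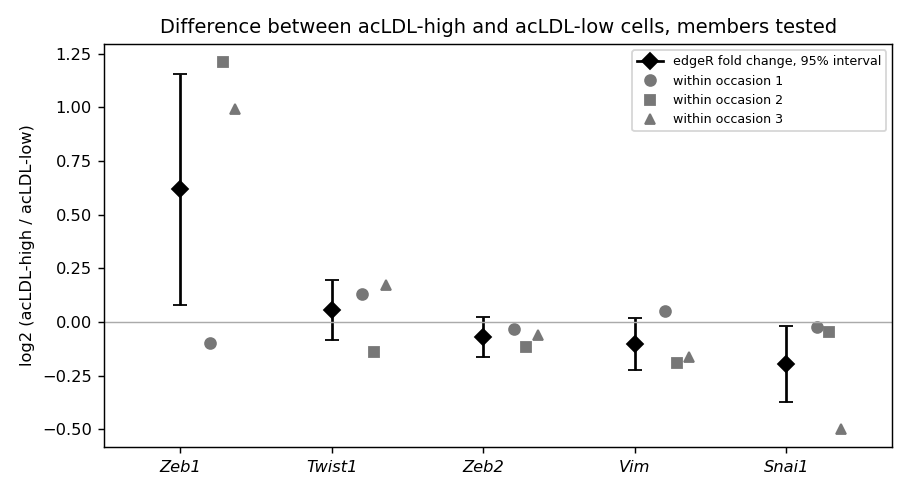
Log2 ratio of acLDL-high to acLDL-low cells for the 5 members tested, with the edgeR fold change and its 95% interval (diamonds) and the difference within each occasion (grey symbols). The intervals of Zeb1 (0.08 to 1.15) and Snai1 (-0.37 to -0.02) do not include 0 before adjustment, and the Snai1 difference comes mainly from occasion 3.

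The members also varied between occasions. Snai1 averaged 28.5, 15.7 and 26.4 CPM on occasions 1, 2 and 3, a fold of 1.82 between the highest and the lowest, which was 1.81 in acLDL-low and 1.83 in acLDL-high cells taken alone. Zeb2 averaged 79.9, 59.3 and 72.1 CPM, a fold of 1.35, and Twist1 averaged 29.6, 23.2 and 26.2 CPM, a fold of 1.28. All 3 were highest on occasion 1 and lowest on occasion 2. Zeb1 had another order, with 1.95, 1.25 and 0.738 CPM and a fold of 2.65, which was 4.16 in acLDL-low and 1.90 in acLDL-high cells. Vim averaged 3283, 3632 and 3414 CPM, a fold of 1.11, which was 1.201 in acLDL-low and 1.015 in acLDL-high cells, and in acLDL-low cells alone Twist1 had a smaller fold of 1.16. The median fold was 1.37 over the genes tested and 1.33 over those that averaged at least 1 CPM. On this TMM scale Snai1 and Zeb1 lay above both, Twist1 and Vim below both, and Zeb2 between them. On library totals the folds of Twist1 and Zeb2 were 1.39 and 1.47, and no median was taken on that scale. The forkhead factor Foxc2, which is also counted among the inducers of EMT, was at 42.3, 26.3 and 50.3 CPM, a fold of 1.91, with its lowest value on occasion 2 as well. These are descriptions, since the 2 libraries of an occasion are taken to come from 1 culture, and no test was made between occasions.

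**Figure D3:**
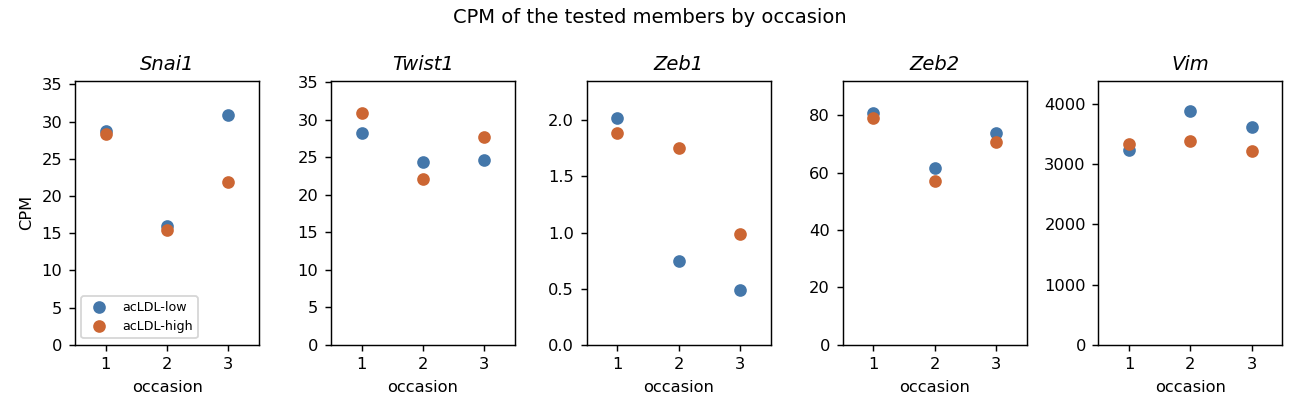
CPM of Snai1, Twist1, Zeb1, Zeb2 and Vim by occasion, each axis from 0, with acLDL-low cells in blue and acLDL-high cells in orange. Snai1, Twist1 and Zeb2 are lowest on occasion 2 in both populations, Twist1 in acLDL-low cells by a small margin over occasion 3, and Vim stays between 3219 and 3875 CPM.

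The genes whose log2 CPM followed each member most closely over the 6 libraries were taken from 11007 protein-coding genes with an average of at least 1 CPM. The 6 libraries form 3 pairs, each taken to share the culture of an occasion, so these correlations are descriptions. They are also the highest of 11007 values for each member, so high correlations follow in part from the search itself. For Snai1 they were Cic, Coq8b and Clcn2 (Pearson r 0.997, 0.996 and 0.995). For Twist1 they were Kbtbd2, Socs5 and Ubald1 (0.985, 0.981 and 0.981), and for Zeb2 Gm42715, Osbpl11 and Rgs11 (0.999 for each). For Zeb1 they were Tpx2, Kif20a and Adam3 (0.993, 0.991 and 0.990). Vim had the weakest best matches, Prcc, Socs4 and Zfp407 (0.974, 0.965 and 0.963).

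The surrounding EMT programme was read from lists of its other regulators, signals and targets. For comparison, 4.75% of all genes tested were called, 3.43% as higher in acLDL-high cells, and the median log2 fold change over all was 0.0017. Of 16 other EMT transcription factors 14 were tested, 1 rose in acLDL-high cells and 0 fell, with a median log2 fold change of 0.06. It was Sox4, an SRY-box factor downstream of transforming growth factor beta, with a log2 fold change of 0.17 (SE 0.04, edgeR adjusted p 0.0382). Sox4 overlaps Gm26735 on the opposite strand over 2616 of its 4795 exon bases. Foxc2 had a log2 fold change of -0.11 (edgeR adjusted p 0.418), and of -0.23 without occasion 1 (adjusted p 0.0196). Of 18 inducing signals and receptors 15 were tested and 2 rose, the receptors Notch1 (0.28, adjusted p 0.0105) and Tgfbr2 (0.19, adjusted p 0.0313), with a list median of 0.13. Notch1 overlaps genes of the opposite strand over 1482 of its 14232 exon bases. Without occasion 3 neither list had a call, without occasion 2 they had 3 and 4, and without occasion 1 they had 1 each. In the list of factors that 1 was Foxc2, which was lower, and Sox4 was then not called (adjusted p 0.0771).

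Over all genes tested, 3.43% were called as higher and 1.32% as lower, with a median log2 fold change of 0.0017. Among 27 mesenchymal effectors 21 were tested, 5 rose in acLDL-high cells and 0 fell, with a median log2 fold change of 0.15. They were the matricellular and matrix genes Thbs1 (0.68, adjusted p 0.000122), Postn (0.88, adjusted p 0.0394) and Fn1 (0.22, adjusted p 0.0422), the matrix metalloproteinase Mmp9 (0.41, adjusted p 0.000311) and the integrin subunit Itgb3 (0.49, adjusted p 0.00268), by edgeR. Postn was scarce, at 0.880 and 1.73 CPM, was not called by DESeq2 with the block (adjusted p 0.0780), and without occasion 2 had a log2 fold change of 0.51 (edgeR adjusted p 0.330). Fn1 overlaps Apol7d on the opposite strand over 292 bases. Without occasion 3, 2 of the list were called.

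The epithelial lists stand beside the same 3.43% of all genes called as higher and the same median of 0.0017. All 24 of 24 epithelial genes that EMT factors repress were tested, of which 5 rose in acLDL-high cells and 0 fell, with a median log2 fold change of 0.09. They were the tight junction proteins Cldn4 (0.53, adjusted p 0.000832), Cldn7 (0.30, adjusted p 0.0102), Cldn3 (0.28, adjusted p 0.0161) and Ocln (0.25, adjusted p 0.0249) and the small GTPase Rab25 (0.59, adjusted p 0.0492), by edgeR. DESeq2 with the block did not call Rab25 (adjusted p 0.124). Of 16 factors of the epithelial state 15 were tested and 3 rose, with a list median of 0.19. They were Ovol1 (0.52, adjusted p 0.000486), a zinc finger repressor known to oppose Zeb factors, Klf4 (0.19, adjusted p 0.0452) and the splicing factor Esrp1 (0.22, adjusted p 0.0456). Without occasion 3 these lists had 2 and 1 calls, and without occasion 1 they had 3 and 2. Of 12 intermediate filaments and linkers of vimentin 9 were tested and 1 rose, the keratin Krt17 (0.58, adjusted p 0.0313, at 1.87 and 2.80 CPM), with a list median of -0.01. DESeq2 with the block did not call Krt17 (adjusted p 0.0745), which left 0 calls in that list.

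Over the 12 lists apart from the members, 21 of 128 genes tested rose and 0 fell in the main edgeR fit. Each of the 21 was higher in acLDL-high cells on 3 of 3 occasions, with log2 fold changes from 0.17 to 0.88. Such agreement is largely built into a call from these same samples with the occasion as a block. These 21 genes are 16.4% of the list genes tested, beside 3.43% of all genes called as higher, for lists chosen with results of these data known. Some alternatives also gave calls as lower. Without occasion 1 the lists of other EMT factors and of filaments and linkers had 1 each. Without occasion 2 the mesenchymal list, the list of filaments and linkers and the macrophage list had 1 each. Without the low-count filter the list of filaments and linkers had 1. When any 1 occasion was left out 8 of the 21 were called each time (Id1, Id2, Id3, Thbs1, Mmp9, Cldn3, Cldn4 and Ovol1), while Fn1, Rab25 and Krt17 were called in none of these fits, and without the occasion as a block 0 were. Mesenchymal and epithelial genes were thus both among those that rose, while Vim, Snai1 and Zeb2 had negative log2 fold changes, Twist1 and Zeb1 positive ones, and none of the 5 was called.

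**Figure D4:**
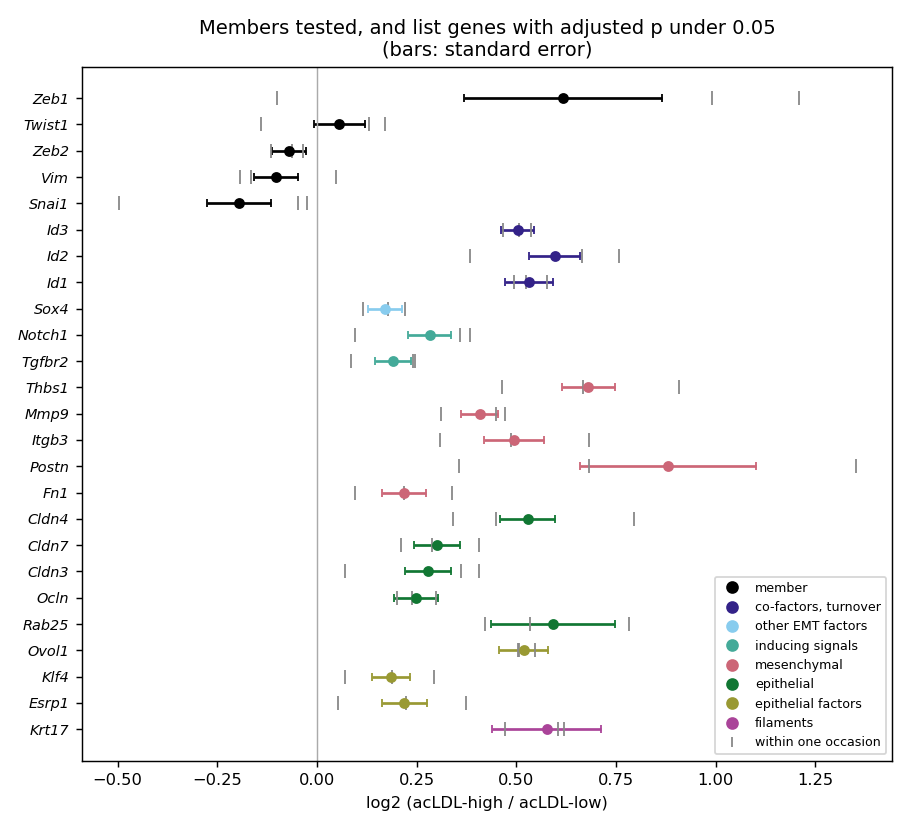
Log2 ratio of acLDL-high to acLDL-low cells with its standard error for the 5 members tested (black) and for genes of the EMT lists with an edgeR adjusted p under 0.05 (coloured by list), and the difference within each occasion (grey ticks). All ticks of the list genes, which were picked by their adjusted p in these same samples, lie to the right of 0. Those of Zeb1, Twist1 and Vim lie on both sides.

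The labelled cell type was checked against markers. Of 10 mammary epithelial markers 9 averaged at least 1 CPM, with Krt5 at 0, their summed level was 3148 to 5281 CPM in acLDL-low and 3489 to 5597 CPM in acLDL-high cells, and 2 were called, Cldn3 and Cldn7. Vim and Twist1 are also genes of fibroblasts, and of 10 fibroblast markers Lum, Col3a1 and Thy1 were at 0, 2 averaged at least 1 CPM, of which Pdgfra was at 34.9 and 37.1 CPM and made up most of the sum, and the summed level was 30.4 to 42.3 CPM against 33.1 to 44.7 CPM, with Postn called. Of 10 macrophage markers Adgre1, C1qa and C1qb were at 0 and 3 averaged at least 1 CPM. The sums of the 10 were 19.2 to 21.5 and 20.1 to 24.4 CPM. Cd14 was called as higher (0.32, edgeR adjusted p 0.0246). Cd68 and Mrc1, chosen for naming after their values were seen, were not called. Cd68 was at 8.98 CPM in acLDL-low and 7.37 CPM in acLDL-high cells (log2 fold change -0.28, edgeR adjusted p 0.201). Mrc1 was at 2.17 and 2.65 CPM (0.30, edgeR adjusted p 0.380). Of 10 endothelial markers Flt4, Emcn, Erg and Cldn5 were at 0, the sums were 1.56 to 2.64 and 1.51 to 2.32 CPM, and 0 of the 3 tested were called. The part of other cell types in the values of Vim was not tested.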

How the data were processed

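RNA-Seq was analysed for 3 acLDL-low and 3 acLDL-high samples of 4T1-T cells. Per the labels, polyA libraries were made with a stranded kit and sequenced as 2 x 50 bp. According to the submitters' processing notes the tools were STAR 2.5.2a, featureCounts 1.4.3-p1 and DESeq2 1.20.0 with the build mm10. The authors deposited raw read counts per gene for 53379 Ensembl IDs, without normalization, and a table of their own comparison, whose fold changes and p-values were not used here. Annotation release and strand setting are not given in the sources used here.

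Counts of the 15973 genes in that table were scaled by TMM, filtered with filterByExpr and tested with edgeR 4.0.16 (R 4.3.3, limma 3.58.1) by the quasi-likelihood test, acLDL-high against acLDL-low with the replicate number as a block, with Benjamini-Hochberg adjustment over 12572 genes and a threshold of 0.05. The series describes 3 separate occasions, and that the replicate number marks the occasion is an assumption made here. Deviations from group means correlated positively between samples of the same number (Pearson r 0.795, 0.846 and 0.799) and negatively between others (-0.557 to -0.0882). The deviations of 3 samples from their group mean sum to 0, so negative values between the others follow from positive ones within a number. Standard errors are |log2 fold change| over the root of the F statistic. Within-occasion differences use log2 CPM with a prior count of 2. Exon lengths and positions come from GENCODE M21 (GRCm38), which held 53274 of the IDs, and promoter sequences from RefSeq (GRCm38.p6), which held 6 of the 9 members. Windows that overlap an annotated exon, and those of genes with several starts, are not shown.

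The members and the gene lists were chosen with earlier results of these data known. Named genes are the 9 members, up to 5 called genes per list and direction with the smallest adjusted p, the 3 genes most like each member, and Cdh1, Epcam, Esrp1, Fn1 and Foxc2. 1 gene of the lists is not reported here and was left out of their counts. Alternatives were no block, DESeq2 size factors, DESeq2 1.42.0 with the block, no low-count filter, a minimum of 10 counts per library, the whole count table, and each occasion left out. The test was tested on simulated counts with 200 changed genes. All per-sample columns were used.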

Additional observations from a re-analysis of the deposited data

How the results depend on the processing

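Vim and Zeb2 kept their negative direction and stayed above the threshold under each alternative, with log2 fold changes of -0.18 to -0.06 and -0.09 to -0.05. The count of genes called was 597 and became 0 without the replicate block, where 45 of 12329 genes had an unadjusted p under 0.05 by edgeR, 932 without a filter on low counts, and 126 to 869 when 1 occasion was left out, with 126 without occasion 3. The count of list genes called was 21 and became 0 without the replicate block, 33 without the filter and 8 to 26 when 1 occasion was left out. Members called numbered 0 to 2 when 1 occasion was left out, 2 without occasion 1 (Snai1 and Zeb1) and 1 without occasion 2 (Snai1), and 0 under each other alternative. With 1 occasion left out the log2 fold change was -0.29 to -0.035 for Snai1, 0.30 to 1.15 for Zeb1 and -0.00067 to 0.15 for Twist1, whose direction turned without occasion 3 (adjusted p 0.998). Without the replicate block, that is without the pairing by occasion, Snai1 and Zeb1 had log2 fold changes of -0.20 and 0.50 with adjusted p of 1. On library totals in place of TMM, the fold between occasions was 1.99 for Snai1 and 1.47 for Zeb2. The causes were not tested, beyond the fewer samples or other genes in each fit. Depth limits Prrx1 and Twist2, which have no fold, and the precision for the members tested rests on 3 occasions.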
